A study of Mus musculus with 16 samples.

Results

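The genes described here encode the protein import machinery of mitochondria, taken as every gene whose symbol starts with Tomm (translocase of the outer membrane) or Timm (translocase of the inner membrane). There were 26 such genes, 10 Tomm and 16 Timm. The table of CPT2H-KO and wild type hearts listed 22 of them (8 Tomm and 14 Timm) among 14138 genes. The table of CPT2/USP30 double KO and CPT2 single KO hearts listed all 26 among 17831 genes. Tomm6, Timm29, Timm8a2 and Tomm20l were read in the second table only and were not analysed here in CPT2H-KO hearts. The symbol prefix also takes in Tomm34, a cytosolic co-chaperone, and Timmdc1, an assembly factor of respiratory complex I, neither of which is a translocase subunit.

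Total RNA of whole mouse hearts was sequenced after ribosomal RNA removal. The groups were 5 CPT2H-KO hearts with a deletion of Cpt2 described as specific to cardiomyocytes, 5 wild type hearts, 3 CPT2/USP30 double KO hearts and 3 CPT2 single KO hearts. Single KO hearts have the genotype CPT2H-KO, so by genotype both groups of the second table lack Cpt2 in cardiomyocytes and differ in Usp30. Cardiac Usp30 deletion is described with Myh6-Cre, a driver active in cardiomyocytes, and floxed Usp30 alleles. No source used here gives the driver for Cpt2, the age or the sex. Cells other than cardiomyocytes keep both genes under such a driver.

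Nearly all mitochondrial proteins are made in the cytosol. They enter through the TOM complex, where receptors hand precursors to a channel, and then separate: TIM23 takes proteins with a cleavable presequence into the matrix or inner membrane, TIM22 inserts carrier proteins, and small TIM chaperones escort hydrophobic precursors across the intermembrane space. The heart is rich in mitochondria and depends on imported enzymes for fatty acid oxidation. CPT2, itself imported, releases fatty acids from carnitine inside mitochondria for oxidation, and USP30 is a deubiquitinase of the outer membrane that opposes the tagging of mitochondria for mitophagy.

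The totals lay between 54674422 and 131049342 counts per library in CPT2H-KO hearts, against 55905339 to 132762776 in wild type hearts. In the second table they lay between 11779115 and 12734379 in double KO hearts, against 11067969 to 13532716 in single KO hearts. Values are CPM, the counts of a gene scaled to a common library size after TMM normalisation, and a gene is called changed at a Benjamini-Hochberg adjusted p under 0.05 in edgeR's quasi-likelihood test across all genes of its table. Cpt2 fell to 40.4 ± 5.72 CPM in CPT2H-KO hearts, against 77.9 ± 15.2 CPM in wild type hearts (SD, n = 5 each), by 0.95 on the log2 scale (edgeR adjusted p = 9.7e-04). Usp30 was at 9.39 ± 1.68 CPM in double KO hearts and 21.0 ± 2.23 CPM in single KO hearts (SD, n = 3 each), with no overlap and an edgeR adjusted p of 0.147. Cpt2 was at 177 ± 11.4 CPM in double KO hearts and 173 ± 8.72 CPM in single KO hearts (SD, n = 3 each). Without wild type hearts in that table, its loss there could not be checked. Summed CPM of 7 cardiomyocyte markers lay between 17080 and 21378 in CPT2H-KO hearts, against 21530 to 23444 in wild type hearts, and 5 of the 7 were called lower. Summed CPM of 5 fibroblast markers lay between 853 and 1416 in CPT2H-KO hearts, against 600 to 917 in wild type hearts, and 2 were called higher. In bulk tissue, fewer cells of a type and less RNA per cell cannot be told apart. Summed CPM of 3 atrial markers was 45.5, 1.80, 1.16, 2.02 and 353 in CPT2H-KO replicates 1 to 5, against 57.1 to 438 in wild type hearts. Only CPT2H-KO replicate 5 reached the wild type range. In the second table the same sum ran from 9.05 to 1434 in double KO hearts against 2.93 to 3.58 in single KO hearts. Summed CPM of 4 endothelial markers also did not overlap in that table (757 to 888 in double KO hearts against 1025 to 1142 in single KO hearts). Nor did that of 3 smooth muscle markers (228 to 312 in double KO hearts against 168 to 187 in single KO hearts). The sum of 3 red blood cell markers did not overlap either (3136 to 5268 in double KO hearts against 5639 to 6910 in single KO hearts). There 0 markers were called, beside 0 of all 12997 genes, so that count does not bear on these sums. Genes encoded by mitochondrial DNA took 67.1% ± 2.96 of counts in CPT2H-KO hearts and 60.6% ± 1.84 in wild type hearts (SD, n = 5 each). The part of cell makeup, atrial tissue and these transcripts in the results that follow was not tested beyond the alternative fits named beside them.

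Per kilobase of annotated exon, the import genes differed widely in level within a heart. In the first table Timm8b was the highest, at 41.8 ± 5.16 CPM per kb in CPT2H-KO hearts and 50.1 ± 2.59 in wild type hearts (SD, n = 5 each). Timm23, Tomm5, Tomm7, Timm10, Tomm22 and Timm44 came next, at 26.8, 24.2, 22.02, 18.7, 17.3 and 11.4 CPM per kb on average in wild type hearts. Each gene from Timm23 to Tomm22 differed from the next by less than the sum of their SDs, whereas Timm44 stood apart below Tomm22. The receptors Tomm20 and Tomm70a and the channel gene Tomm40 stood lower, at 5.68, 4.79 and 4.83 CPM per kb in wild type hearts. Timm10b was the lowest, at 0.829 ± 0.100 CPM per kb in CPT2H-KO hearts and 0.945 ± 0.025 in wild type hearts (SD, n = 5 each). Every member of the first table was read with between 119 and 8101 counts per library. In the second table Timm8b was again the highest per kb, at 152 ± 23.0 in double KO hearts and 151 ± 1.28 in single KO hearts (SD, n = 3 each). The higher values there are not a higher expression, since the tables differ in the genes that make up their totals. Exons were merged over all annotated transcripts, so a gene with long alternative transcripts is placed too low in such an order.

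In CPT2H-KO hearts the import genes changed in both directions and by small amounts. The channel gene Tomm40, the presequence receptor Timm50 of the inner membrane and the small chaperone Timm10 rose. None of them was called with full library totals as the scale, where Timm50 turned to −0.06. All were called when mitochondrially encoded genes were left out of the totals. Tomm40l and Tomm7 of the outer membrane fell, as did Timm17b, Timm21, Timm22 and Timm8b of the inner membrane and intermembrane space. Of the 22 members, 9 were called, 3 higher and 6 lower, which is 40.9%, beside 33.7% of all 14123 genes tested (16.7% higher and 17% lower). By class, 3 of 8 Tomm genes (1 higher and 2 lower) and 6 of 14 Timm genes (2 higher and 4 lower) were called. The log2 differences of members ran from −0.53 to 0.39, with a median of −0.10 beside −0.01 over all genes. The median was −0.05 for Tomm genes and −0.13 for Timm genes. The groups did not overlap for 4 members that were lower and 3 that were higher, beside 13.2% and 11.5% of all genes.

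**Figure D1:**
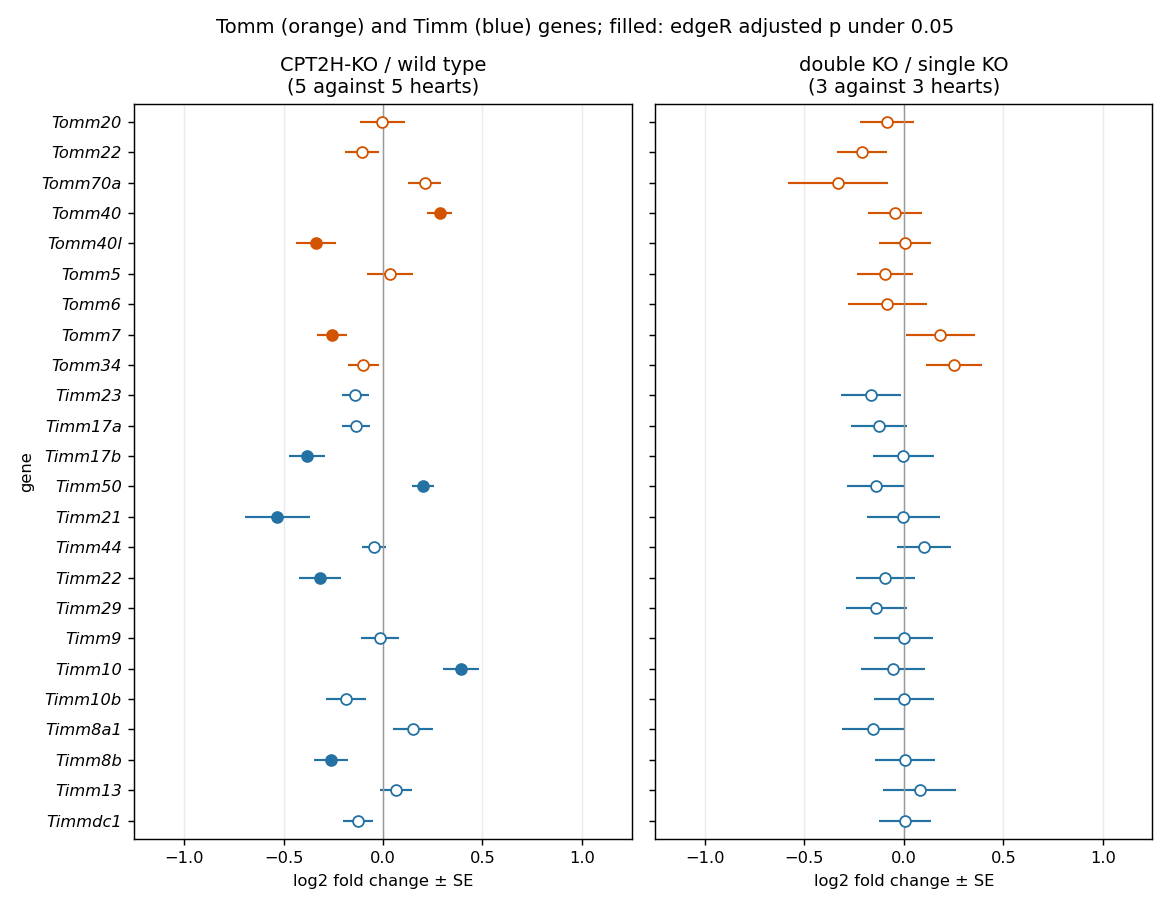
Log2 fold change with its standard error for each Tomm gene (orange) and Timm gene (blue), in CPT2H-KO over wild type hearts on the left and in double KO over single KO hearts on the right. Filled points passed an edgeR adjusted p under 0.05: 9 of 22 on the left, on both sides of 0, and 0 of 24 on the right. Genes without a point on the left were read in the second table only.

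The receptors of the outer membrane were not called. Tomm20, which recognises presequences, had 34.6, 27.1, 22.2, 24.2 and 31.1 CPM in CPT2H-KO replicates 1 to 5, against 26.1, 29.3, 29.8, 26.6 and 27.6 CPM in wild type hearts. The CPT2H-KO hearts lay on both sides of the wild type range and averaged 27.8 ± 5.06 CPM, against 27.9 ± 1.65 CPM (SD, n = 5 each). The fitted difference was 0.00 with a standard error of 0.11 (edgeR adjusted p = 0.988). Tomm70a, which receives carrier precursors from cytosolic chaperones, had 56.0, 55.7, 47.4, 48.9 and 62.3 CPM in CPT2H-KO hearts, against 45.6, 50.9, 46.4, 45.2 and 45.9 CPM in wild type hearts. CPT2H-KO replicates 3 and 4 fell inside the wild type range and the others above it, with a log2 difference of 0.21 ± 0.08 (SE) and an edgeR adjusted p of 0.0666. That p was 0.0376 in DESeq2 and 0.0338 without CPT2H-KO replicate 3, while scaling by library totals alone turned the difference to −0.05. Tomm22, the central receptor, which was added to the named genes after its values were seen, differed by −0.11 ± 0.08 on the log2 scale (SE, edgeR adjusted p = 0.355).

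Both channel genes were called, in opposite directions. Tomm40 (chr7:19701313-19715438, minus strand, GRCm38) encodes the barrel through which almost all precursors pass. It had 25.7, 26.1, 28.3, 25.3 and 27.5 CPM in CPT2H-KO hearts, against 23.5, 21.9, 22.6, 21.2 and 19.8 CPM in wild type hearts. Every CPT2H-KO heart was above every wild type heart, and the gene rose by 0.29 ± 0.06 on the log2 scale (SE, edgeR adjusted p = 0.0065). Its paralogue Tomm40l (chr1:171216011-171222514, minus strand) had 17.9, 24.5, 26.2, 23.7 and 22.6 CPM in CPT2H-KO hearts, against 30.9, 27.04, 30.4, 30.8 and 25.9 CPM in wild type hearts. Only CPT2H-KO replicate 3 reached into the wild type range, and Tomm40l differed by −0.34 ± 0.10 (SE, edgeR adjusted p = 0.0250). The call was lost without wild type replicate 1, 3 or 4 (edgeR adjusted p = 0.0594, 0.0570 and 0.0569). Of the 5135 exon bases of Tomm40l, 3304 are also exon of Nr1i3 on the other strand, and whether the counts keep strand is not stated by the labels. Nr1i3 had at most 1 count in any library of the second table and was not analysed here in the first.

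The ratio of the channel genes to each other turned over between the groups. Tomm40 stood at 1.17 times the CPM of Tomm40l on average in CPT2H-KO hearts (range 1.06 to 1.44) and at 0.753 times in wild type hearts (range 0.688 to 0.809). On the log2 scale the ratio was 0.22 ± 0.19 in CPT2H-KO hearts and −0.41 ± 0.08 in wild type hearts (SD, n = 5 each), and no hearts of the groups overlapped. A ratio within a library does not depend on its scaling. The pair was set against each other after the values of both genes were seen, so no test is given. In the second table the same log2 ratio was 0.83 ± 0.07 in double KO hearts and 0.88 ± 0.05 in single KO hearts (SD, n = 3 each).

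Among the small subunits of the TOM complex, Tomm7 (chr5:23838944-23844161, minus strand), also known for holding the kinase PINK1 at the outer membrane, was called lower. It had 18.4, 21.3, 19.8, 21.0 and 23.2 CPM in CPT2H-KO hearts, against 25.7, 24.4, 26.7, 24.6 and 22.4 CPM in wild type hearts. CPT2H-KO replicate 5 overlapped with wild type replicate 5, and the log2 difference was −0.25 ± 0.08 (SE, edgeR adjusted p = 0.0240). Without wild type replicate 1 or 3 the adjusted p was 0.0562 and 0.0610. Tomm5 was at 21.5 ± 3.51 CPM in CPT2H-KO hearts and 21.0 ± 2.28 CPM in wild type hearts, and was not called. Tomm34, the co-chaperone, was at 7.57 ± 0.58 CPM in CPT2H-KO hearts and 8.10 ± 0.64 CPM in wild type hearts (SD, n = 5 each) and was not called either.

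In the presequence translocase TIM23, 3 of 5 members were called, 1 higher and 2 lower (60%, beside 33.7% of all genes). Timm50 (chr7:28305516-28312072, minus strand), the receptor that meets presequences as they leave the TOM complex, had 13.8, 14.8, 14.7, 14.1 and 14.4 CPM in CPT2H-KO hearts, against 13.3, 12.2, 12.6, 11.9 and 12.4 CPM in wild type hearts. All CPT2H-KO hearts were above all wild type hearts, and the gene rose by 0.20 ± 0.06 on the log2 scale with TMM (SE, edgeR adjusted p = 0.0187). Timm17b (chrX:7899357-7908351, plus strand), an alternative subunit of the translocase, had 4.58, 5.05, 6.24, 5.44 and 5.60 CPM in CPT2H-KO hearts, against 7.24, 7.20, 7.49, 6.83 and 6.33 CPM in wild type hearts. The groups did not overlap and Timm17b fell by 0.38 on the log2 scale (SE 0.09, edgeR adjusted p = 0.0078). Timm17b is X-linked, and transcripts of the Y chromosome summed to less than 1 CPM in 2 of 5 CPT2H-KO hearts and 1 of 5 wild type hearts; with a term for this, the difference was −0.39 (edgeR adjusted p = 0.0130).

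Timm21, which links TIM23 to the TOM complex and, in human cells, to respiratory chain assembly, had the widest log2 difference of any member in this comparison. It had 5.39, 9.76, 9.66, 9.83 and 10.9 CPM in CPT2H-KO hearts, against 13.8, 14.2, 14.4, 12.4 and 11.0 CPM in wild type hearts. The groups did not overlap but came close at CPT2H-KO replicate 5 and wild type replicate 5, and CPT2H-KO replicate 1 stood far below the other 4. Timm21 fell by 0.53 on the log2 scale (SE 0.16, edgeR adjusted p = 0.0269). Without CPT2H-KO replicate 1 it fell by 0.39 and was still called, whereas the call was lost without wild type replicate 1, 2 or 3 (edgeR adjusted p = 0.0579, 0.0635 and 0.0627).

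The pore subunits of TIM23 with the highest counts were not called. Timm23 had 41.7, 43.3, 41.9, 42.6 and 47.5 CPM in CPT2H-KO hearts, against 48.6, 50.3, 51.4, 45.6 and 43.0 CPM in wild type hearts. The groups overlapped through CPT2H-KO replicates 2 and 5 and wild type replicates 4 and 5, and the log2 difference was −0.14 ± 0.07 (SE, edgeR adjusted p = 0.136). Timm17a, the more abundant partner of Timm17b, had 53.0, 49.6, 44.9, 43.8 and 52.3 CPM in CPT2H-KO hearts, against 52.8, 56.3, 56.1, 51.7 and 50.8 CPM in wild type hearts. The groups overlapped and the log2 difference was −0.14 ± 0.07 (SE, edgeR adjusted p = 0.159). Timm44, which anchors the import motor to the channel, was at 40.5 ± 1.96 CPM in CPT2H-KO hearts and 41.8 ± 2.50 CPM in wild type hearts (SD, n = 5 each), and was not called. Timm17a over Timm17b, as a log2 ratio of CPM, was 3.18 ± 0.26 in CPT2H-KO hearts and 2.93 ± 0.05 in wild type hearts, with overlapping groups.

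Timm22 (chr11:76406952-76416292, plus strand), the pore of the carrier translocase, had 6.15, 9.17, 8.42, 9.06 and 7.39 CPM in CPT2H-KO hearts, against 10.5, 9.56, 10.2, 10.4 and 9.42 CPM in wild type hearts. The groups did not overlap, and Timm22 differed by −0.32 ± 0.11 on the log2 scale (SE, edgeR adjusted p = 0.0380). Removing any of 6 libraries in turn (CPT2H-KO replicates 3 and 5 and wild type replicates 1 to 4) ended this call, with edgeR adjusted p from 0.0501 to 0.0814.

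Of 6 small TIM chaperones tested, Timm10 rose and Timm8b fell (33.3%, beside 33.7% of all genes). Timm10 (chr2:84826997-84830213, plus strand), which works as a ring with Timm9, had 18.9, 20.1, 18.8, 19.5 and 22.7 CPM in CPT2H-KO hearts, against 12.9, 15.7, 17.5, 14.4 and 15.8 CPM in wild type hearts. Every CPT2H-KO heart was above every wild type heart, with a rise of 0.39 ± 0.09 on the log2 scale (SE, edgeR adjusted p = 0.0065). Its partner Timm9 was at 5.63 ± 0.78 CPM in CPT2H-KO hearts and 5.70 ± 0.28 CPM in wild type hearts (SD, n = 5 each) and was not called. Timm8b (chr9:50603910-50605320, plus strand), related to the Timm8 subunit that pairs with Timm13, had 18.5, 23.0, 20.1, 21.2 and 25.5 CPM in CPT2H-KO hearts, against 25.4, 26.8, 27.7, 24.3 and 25.5 CPM in wild type hearts. Only CPT2H-KO replicate 5 reached the wild type range, and Timm8b differed by −0.26 ± 0.09 (SE, edgeR adjusted p = 0.0375). That call was lost on removing any of 7 libraries in turn (CPT2H-KO replicates 1, 3 and 4 and wild type replicates 1, 2, 3 and 5), with edgeR adjusted p from 0.0525 to 0.0867. Timm13 was at 12.1 ± 0.97 CPM and Timm8a1 at 2.84 ± 0.13 CPM in CPT2H-KO hearts, against 11.6 ± 0.97 CPM and 2.56 ± 0.26 CPM in wild type hearts (SD, n = 5 each), and neither was called. Timm10b had lower CPM in every CPT2H-KO heart than in any wild type heart, at 2.35 to 3.18 CPM against 3.28 to 3.52 CPM, and was not called (edgeR adjusted p = 0.173); it was added to the named genes after its values were seen. Timmdc1 was at 16.1 ± 1.55 CPM in CPT2H-KO hearts and 17.5 ± 0.80 CPM in wild type hearts (SD, n = 5 each) and was not called.

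**Figure D2:**
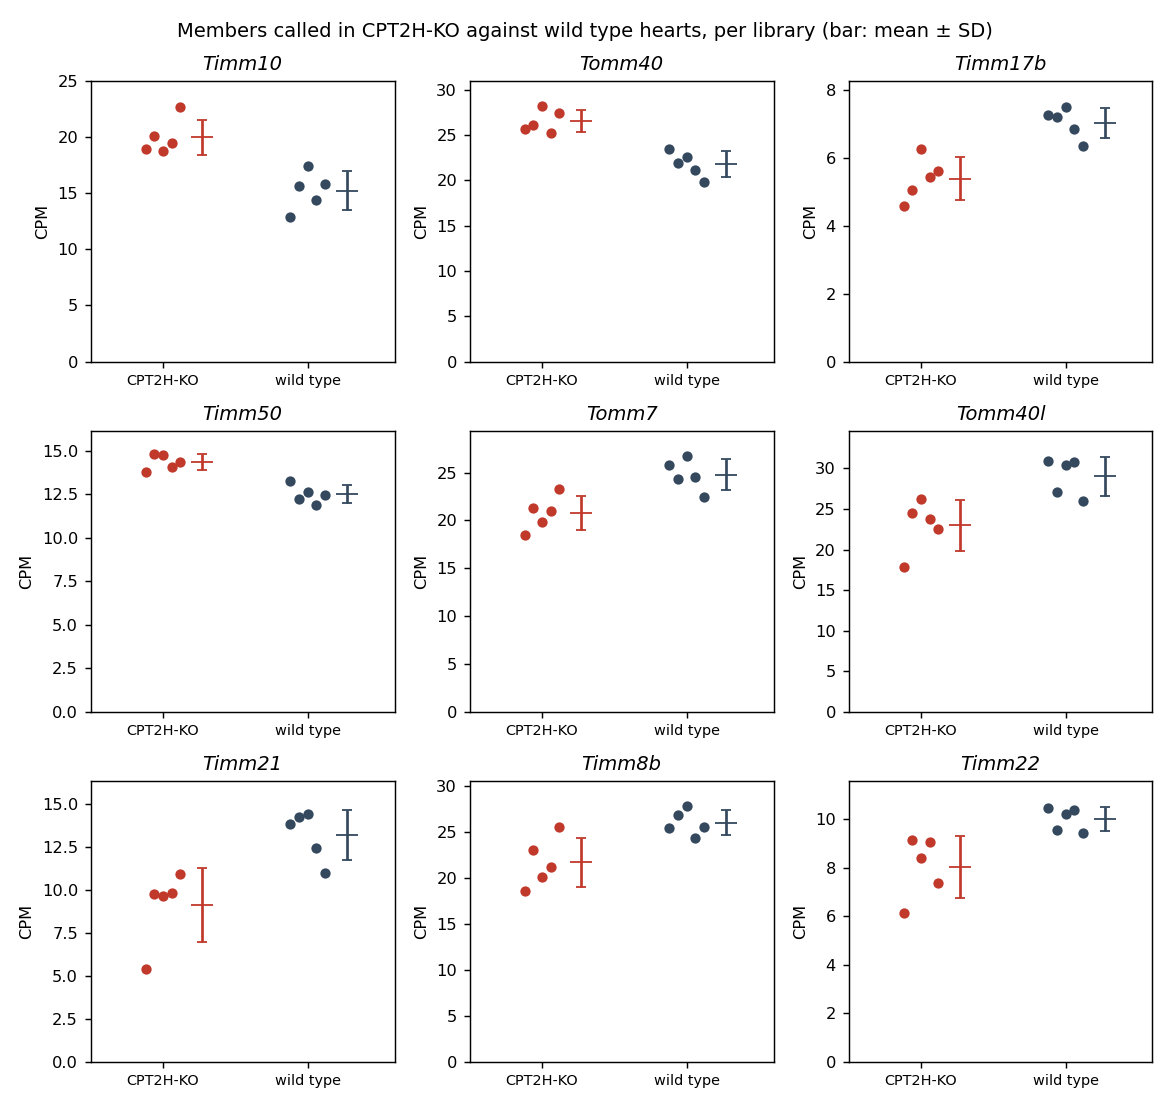
CPM per heart for the 9 called members, with CPT2H-KO hearts (red) left of wild type hearts (dark) and bars for the mean ± SD of 5 hearts each; every axis starts at 0. Timm10, Tomm40 and Timm50 lie wholly higher in CPT2H-KO hearts, Timm17b, Timm21 and Timm22 wholly lower, and Tomm7, Tomm40l and Timm8b overlap.

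Several of these calls were lost with another scaling or with an atrial marker covariate. With library totals alone as the scale, in which the mitochondrially encoded transcripts weigh fully, the median of all genes moved to −0.27 and 13 members were called, all lower. Timm10, Tomm40 and Timm50 then stood at 0.13, 0.02 and −0.06, above that median and no longer called (edgeR adjusted p = 0.387, 0.874 and 0.692). Over all genes that scaling split the calls into 827 higher and 4832 lower, against 2360 and 2398 with TMM. In a further fit that was not planned, mitochondrially encoded genes were left out of the library totals. The median of all genes was then −0.01 and 7 of the 9 called members stayed called, among them Timm10, Tomm40 and Timm50. Timm22 and Timm8b were not called in that fit. With an atrial marker covariate, Timm10, Tomm40 and Timm22 kept their calls, Tomm70a was added at 0.32 (edgeR adjusted p = 0.0300) and the other 6 were not called. Timm17b, Timm50, Timm21 and Tomm40l then stood at −0.39, 0.20, −0.50 and −0.40 (edgeR adjusted p = 0.0512, 0.0915, 0.132 and 0.0650), about the size without the covariate or larger but with larger standard errors. Tomm7 and Timm8b moved closer to 0, at −0.18 and −0.19 (edgeR adjusted p = 0.204 and 0.234). Summed atrial markers were lower in CPT2H-KO replicates 1 to 4 than in any wild type heart, so the covariate partly runs with genotype. Timm10 and Tomm40 were called in every alternative except library totals over all genes.

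Promoters are shown for 3 called genes: Timm10, which had the largest rise, the channel gene Tomm40, and Timm8b, the member with the highest level per kb. They were searched for letters bound by factors known to act on mitochondrial genes. RefSeq (GRCm38.p6) promoters were matched to 23 of the 26 members (all but Tomm40l, Tomm7 and Timm21), and each sequence holds the 250 bases before that start, read 5′ to 3′ on the gene's strand, with motif matches in capitals.
Timm10, chr2:84826771-84827020, plus strand: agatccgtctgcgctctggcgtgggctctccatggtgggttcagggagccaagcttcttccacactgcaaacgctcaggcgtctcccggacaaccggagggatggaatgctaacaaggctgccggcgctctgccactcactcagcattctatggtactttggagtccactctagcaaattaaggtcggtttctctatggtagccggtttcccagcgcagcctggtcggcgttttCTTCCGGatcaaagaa
Tomm40, chr7:19715430-19715679, minus strand: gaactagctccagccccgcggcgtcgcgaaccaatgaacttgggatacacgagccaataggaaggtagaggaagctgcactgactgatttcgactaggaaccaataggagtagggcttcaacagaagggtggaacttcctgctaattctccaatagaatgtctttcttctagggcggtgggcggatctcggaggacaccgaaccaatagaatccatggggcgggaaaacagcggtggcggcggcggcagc
Timm8b, chr9:50603651-50603900, plus strand: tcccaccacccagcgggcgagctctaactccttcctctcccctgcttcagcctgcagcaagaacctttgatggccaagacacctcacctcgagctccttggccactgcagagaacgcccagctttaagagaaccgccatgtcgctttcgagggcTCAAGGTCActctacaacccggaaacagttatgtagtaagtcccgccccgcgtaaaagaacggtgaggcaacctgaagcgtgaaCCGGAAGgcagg
The letters searched on both strands were CCGGAAG for the ETS family, which includes GABP, TCAAGGTCA for the estrogen-related receptors, AAGATGG for YY1 and TGATGCAA for ATF4, together with the palindromic motif of NRF1. Timm10 holds the ETS letters on the opposite strand, Timm8b holds the ETS and the estrogen-related receptor letters, and Tomm40 holds none of the 5. The ETS letters were found in 9 of the 23 members (39.1%), beside 7.83% of 27025 genes. Those 27025 are all genes with a RefSeq promoter, not only genes tested in these hearts. A share over tested genes was not computed. The 9 include Timm8a2, which had too few counts for a test, and Tomm34 and Timmdc1, which are not translocase subunits. Among the matched members that were called, they were in Timm10, which rose, and Timm8b, which fell. They were found in Tomm22, Tomm70a and Tomm34 among Tomm genes and in Timm23, Timm29, Timm10, Timm8a2, Timm8b and Timmdc1 among Timm genes. The estrogen-related receptor letters were in 1 member (4.35%), Timm8b, beside 0.422% of genes, and the YY1 letters in 1 member, Tomm34, beside 5.18% of genes. The NRF1 and ATF4 letters were in 0 members, beside 0.877% and 0.918% of genes. These are matches of letters in a window, not binding sites.

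Outer and inner membrane genes were then set against each other within each heart, as the mean log2 CPM of the Tomm genes minus that of the Timm genes. The outer-minus-inner value was 0.97, 0.89, 0.85, 0.86 and 0.93 in CPT2H-KO replicates 1 to 5, against 0.82, 0.85, 0.85, 0.86 and 0.82 in wild type hearts. CPT2H-KO replicates 1, 2 and 5 were above all wild type hearts, and replicates 3 and 4 were among them. The means were 0.90 ± 0.05 in CPT2H-KO hearts and 0.84 ± 0.02 in wild type hearts (SD, n = 5 each), a difference of 0.06. The summed CPM of Timm genes was 251 ± 13.8 in CPT2H-KO hearts and 268 ± 11.9 in wild type hearts, and that of Tomm genes was 208 ± 14.7 in CPT2H-KO hearts and 208 ± 8.54 in wild type hearts (SD, n = 5 each). Called members of both directions stood in both classes, so neither class moved as a block. Since these genes were chosen with results in view, no p is given for the value. Among hearts with Myl7, an atrial myosin gene, above 10 CPM, the difference was 0.11. That setting keeps only CPT2H-KO replicates 1 and 5, which had the highest values (0.97 and 0.93), and every wild type heart.

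**Figure D3:**
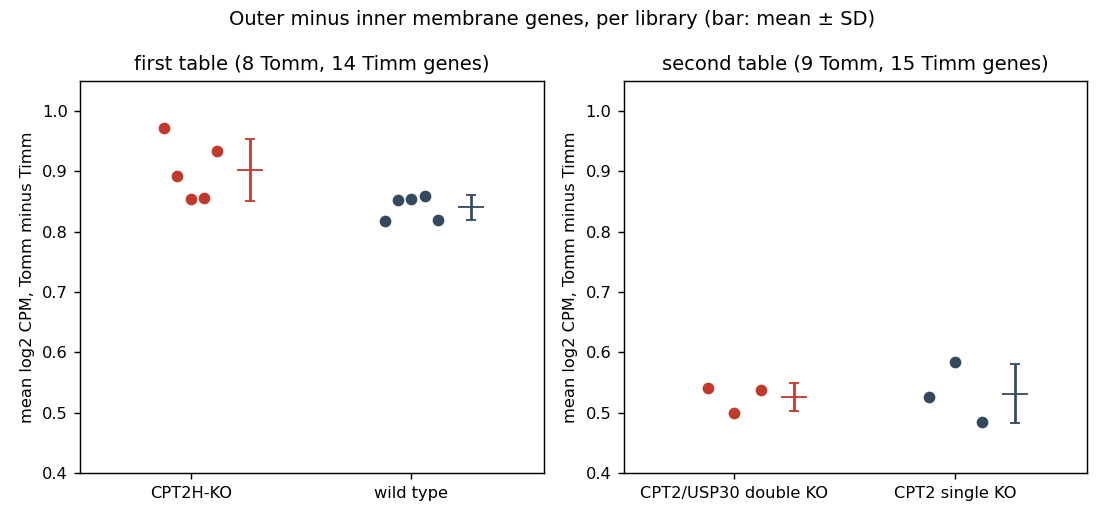
Mean log2 CPM of Tomm genes minus that of Timm genes in each heart, with the genotype carrying the further deletion on the left of each panel and bars for mean ± SD. CPT2H-KO hearts averaged 0.90 and wild type hearts 0.84, and double KO and single KO hearts both averaged 0.53; the axis does not start at 0, and the panels come from tables with different gene sets.

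Import also depends on proteins outside the Tomm and Timm names, and 27 such genes were read as partners. In CPT2H-KO hearts 13 of 27 were called, 7 higher and 6 lower (48.1%, beside 33.7% of all genes), with a median log2 difference of 0.04. All 7 partners listed for the import motor and its regulators were called. The chaperone Hspa9 (mortalin) and its nucleotide exchange factors Grpel1 and Grpel2 rose, and Dnajc19, Dnajc15, Pam16 and Romo1 fell. Pam16 and Hspa9 passed narrowly (edgeR adjusted p = 0.0476 and 0.0496). Timm44, the member that anchors this motor, was not called (edgeR adjusted p = 0.608). In yeast, the relatives of Dnajc19, Pam16 and Romo1 act at the TIM23 channel as a J-protein, its regulator and a gating subunit. None of the 4 genes of the sorting and assembly machinery, which builds outer membrane barrels such as Tomm40, was called, nor any of the 3 of the disulfide relay of the intermembrane space. Gfer of the relay and Mtx1 of the sorting machinery missed narrowly, at 0.23 and −0.25 (edgeR adjusted p = 0.0509 and 0.0553). Both were named after their values were seen.

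Grpel2 had 20.5, 15.4, 17.8, 17.7 and 18.2 CPM in CPT2H-KO hearts, against 8.94, 9.56, 9.14, 8.63 and 9.17 CPM in wild type hearts. The groups lay far apart, and Grpel2 rose by 0.98 ± 0.08 on the log2 scale (SE, edgeR adjusted p = 1.5e-05), more than any member. Grpel1, the other exchange factor, had 49.3, 50.6, 48.8, 47.0 and 55.4 CPM in CPT2H-KO hearts, against 42.1, 41.7, 44.1, 40.9 and 38.4 CPM in wild type hearts. Its groups did not overlap either, with a rise of 0.28 ± 0.06 (SE, edgeR adjusted p = 0.0070) that came to 0.02 with library totals alone. Hspa9 averaged 362 ± 29.2 CPM in CPT2H-KO hearts and 312 ± 22.4 CPM in wild type hearts (SD, n = 5 each), a difference of 0.21 ± 0.08 (SE, edgeR adjusted p = 0.0496). Its call was lost on removing any 1 of the 10 libraries (edgeR adjusted p from 0.0536 to 0.109), and library totals turned the value to −0.05.

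Romo1 had 10.7, 12.1, 11.7, 12.4 and 14.1 CPM in CPT2H-KO hearts, against 15.7, 17.0, 17.5, 15.3 and 15.4 CPM in wild type hearts. The groups did not overlap, and Romo1 fell by 0.40 on the log2 scale (SE 0.08, edgeR adjusted p = 0.0034). Immp1l, a subunit of the inner membrane peptidase, fell by 0.47 with no overlap (SE 0.11, edgeR adjusted p = 0.0073), to 12.9 CPM in CPT2H-KO hearts against 17.8 CPM in wild type hearts on average. Dnajc19 and Dnajc15 differed by −0.39 ± 0.11 and −0.31 ± 0.09 (SE, edgeR adjusted p = 0.0189 each), with overlapping groups, and Dnajc19 was not called without wild type replicate 2 (edgeR adjusted p = 0.0524). Chchd4, the oxidoreductase of the disulfide relay that imports small TIM proteins, differed by 0.23 and was not called (edgeR adjusted p = 0.0728); without CPT2H-KO replicate 1 or wild type replicate 2 the p was 0.0458 and 0.0410.

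**Figure D4:**
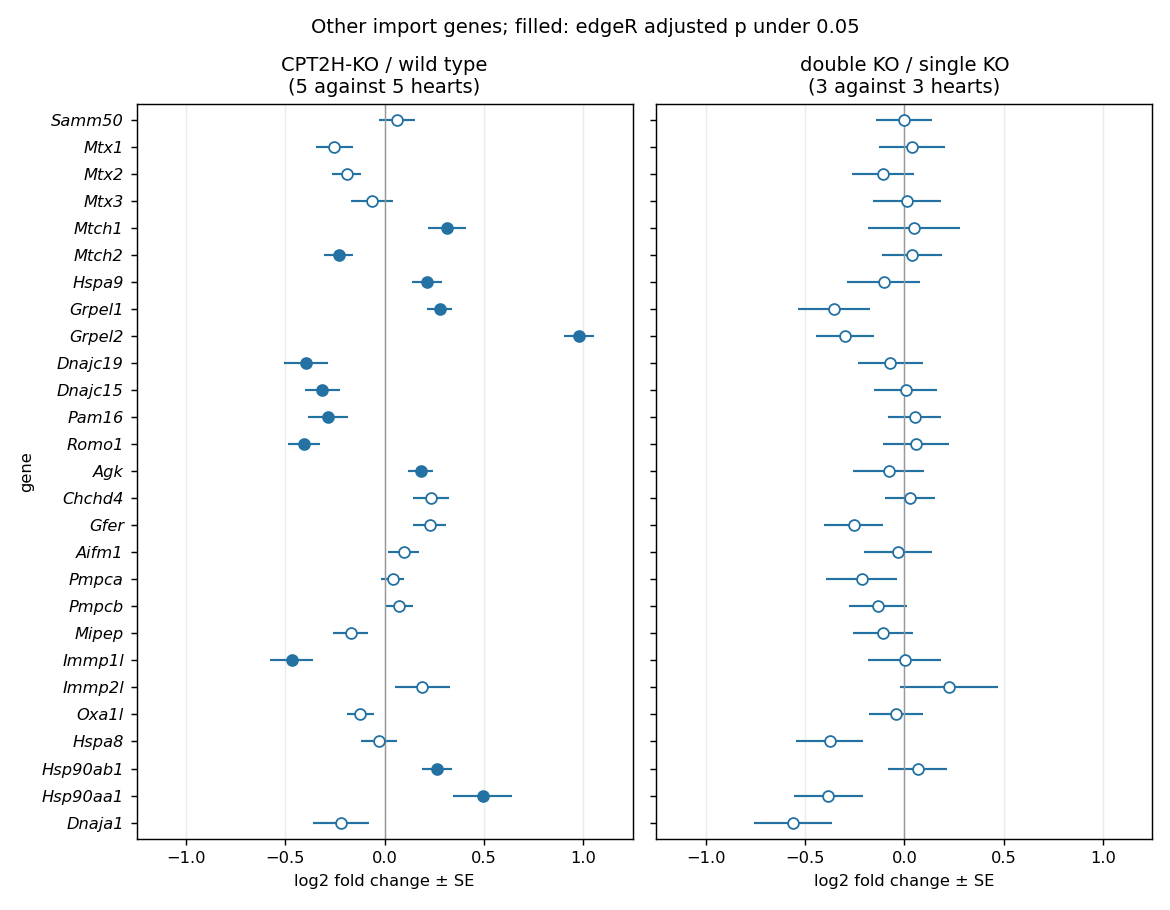
Log2 fold change with its standard error for 27 other import genes, in CPT2H-KO over wild type hearts on the left and in double KO over single KO hearts on the right. Filled points passed an edgeR adjusted p under 0.05, 13 on the left and 0 on the right, and Grpel2 stands apart on the left at 0.98.

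Double KO hearts were set against single KO hearts to ask what loss of Usp30 adds where Cpt2 is already lost. No import gene was called. Of the 26 members, 24 had enough counts to be tested and 0 were called, beside 0 of 12997 genes (0%) at an edgeR adjusted p under 0.05. At an unadjusted p under 0.05, 0 members passed, beside 942 genes (7.25%). DESeq2 called 113 genes (0.869%) and limma-voom 0, and neither called a member. The lowest edgeR adjusted p of any member was 0.791, and the median log2 difference of members was −0.05 beside 0.00 over all genes. Without double KO replicate 1, 114 genes were called, and without single KO replicate 3, 4 were called, with 0 members among them in both cases. Y-linked transcripts were above 1 CPM in 0 of 3 double KO hearts and 2 of 3 single KO hearts, and a term for this called 0 genes.

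The precision of this comparison was lower than in the first, with standard errors of 0.13 to 0.25 on the log2 scale, against 0.06 to 0.16 in the comparison of CPT2H-KO with wild type hearts. Intervals of 1.96 standard errors stayed within 0.5 of 0 on the log2 scale for 21 of 24 members, and the widest bounds were −0.82 for Tomm70a and 0.53 for Tomm34. Usp30 itself differed by −1.16 on the log2 scale and was not called (edgeR adjusted p = 0.147). Smaller differences, such as that of Timm10 in CPT2H-KO hearts, could therefore be missed for any member. An absence of calls does not show that these genes are equal.

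Tomm70a had the widest spread, at 55.9, 115 and 101 CPM in double KO hearts, against 94.9, 113 and 134 CPM in single KO hearts. Only double KO replicate 1 lay outside the single KO range, and the log2 difference of −0.33 ± 0.25 (SE, edgeR adjusted p = 0.855) was −0.08 without it. Tomm22 had 78.7, 70.3 and 72.4 CPM in double KO hearts, against 84.6, 86.6 and 85.1 CPM in single KO hearts. It was the 1 member whose double KO values all lay lower, beside 5.07% of all genes, with a difference of −0.21 ± 0.13 (SE, edgeR adjusted p = 0.797). Tomm34 was the 1 member whose values all lay higher, beside 6.69% of genes, at 29.8, 28.4 and 29.6 CPM in double KO hearts against 26.3, 26.3 and 21.1 CPM in single KO hearts, a difference of 0.25 ± 0.14 (SE, edgeR adjusted p = 0.791). Tomm22 and Tomm34 were named after their values were seen.

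The remaining TOM subunits overlapped between the groups. Tomm20 had 117, 130 and 108 CPM in double KO hearts, against 125, 126 and 126 CPM in single KO hearts, a difference of −0.08 ± 0.13 (SE, edgeR adjusted p = 0.942). Tomm40 had 143, 147 and 126 CPM in double KO hearts, against 137, 153 and 139 CPM in single KO hearts, a difference of −0.05 ± 0.14 (SE, edgeR adjusted p = 0.978), and Tomm40l differed by 0.01 (edgeR adjusted p = 0.995). Tomm6, a small subunit of the channel complex, had 80.4, 58.1 and 47.0 CPM in double KO hearts, against 68.8, 70.0 and 57.6 CPM in single KO hearts. Of the 1131 exon bases of Tomm6, 859 are also exon of Gm21981 on the same strand. How reads there were counted is not stated, so the level of Tomm6 is uncertain. Tomm7, named after its values were seen, had 69.2, 45.8 and 47.9 CPM in double KO hearts, against 48.7, 47.4 and 47.3 CPM in single KO hearts. Replicate 1 alone set the direction for Tomm7, since the difference of 0.18 became −0.03 without it.

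The Timm genes spanned −0.17 to 0.10 on the log2 scale, and the Tomm genes −0.33 to 0.25. Timm23 had 215, 229 and 233 CPM in double KO hearts, against 248, 222 and 289 CPM in single KO hearts, a difference of −0.17 ± 0.15 (SE, edgeR adjusted p = 0.885). Timm17a had 140, 147 and 121 CPM in double KO hearts, against 142, 144 and 160 CPM in single KO hearts, a difference of −0.13 ± 0.14 (SE, edgeR adjusted p = 0.907). The groups overlapped for both genes and for every other Timm gene tested. Timm10, which rose in CPT2H-KO hearts, was at 60.5 ± 11.8 CPM in double KO hearts and 62.8 ± 3.17 CPM in single KO hearts (SD, n = 3 each). Timm17b was at 25.5 ± 1.62 CPM in double KO hearts and 25.5 ± 4.00 CPM in single KO hearts. Timm21 was at 23.2 ± 4.80 CPM in double KO hearts and 23.3 ± 2.74 CPM in single KO hearts (SD, n = 3 each). Whether these differences depart from those in CPT2H-KO hearts was not tested, because the tables were made separately.

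The outer-minus-inner value was 0.54, 0.50 and 0.54 in double KO hearts, against 0.53, 0.58 and 0.49 in single KO hearts. The groups overlapped and both averaged 0.53, with SDs of 0.02 and 0.05 and a difference of −0.01. Of the 27 partners 0 were called, and Dnaja1, a cytosolic chaperone named after its values were seen, was the only one with an unadjusted p under 0.05 (log2 difference −0.56, edgeR adjusted p = 0.529). Grpel2 and Grpel1, both called higher in CPT2H-KO hearts, differed by −0.30 and −0.35 between double and single KO hearts (edgeR adjusted p = 0.722 and 0.757). Hspa9 and Chchd4 differed by −0.11 and 0.03 (edgeR adjusted p = 0.947 and 0.983).

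**Figure D5:**
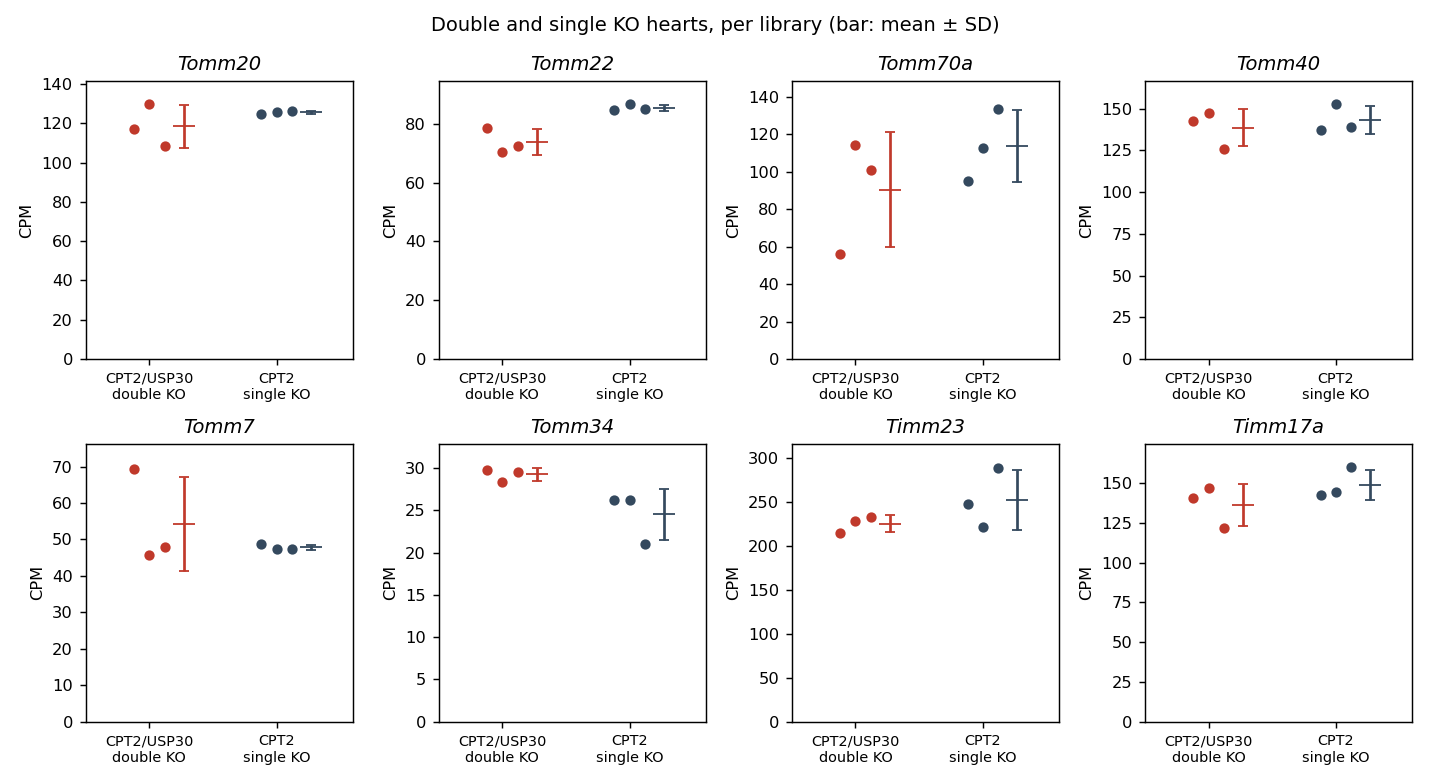
CPM per heart for 8 members, with CPT2/USP30 double KO hearts (red) left of CPT2 single KO hearts (dark) and bars for the mean ± SD of 3 hearts each; every axis starts at 0. Double KO replicate 1 stands low for Tomm70a at 55.9 CPM and high for Tomm7 at 69.2 CPM, and the groups separate for Tomm22 and Tomm34 alone among these 8.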

How the data were processed

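Total RNA of 16 mouse hearts was purified on columns with DNase treatment and made into stranded libraries after ribosomal RNA removal, per the labels' protocols. Per the submitters' processing notes, bcl2fastq, HISAT2 and DESeq2 1.42.0 were used with the mm10 build. No label, note or header used here names the program that counted the reads, its annotation or its use of strand, which leaves overlapping genes uncertain. The authors deposited raw read counts per gene in 2 tables with different gene sets, and groups were compared within each table only. In the first table no gene had a total under 151 counts, and in the second 521 genes had 0 counts in every library and 1 unnamed row was left out.

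Genes were filtered with filterByExpr, scaled by TMM and tested with edgeR 4.0.16 in R 4.3.3, with the Benjamini-Hochberg adjustment over 14123 and 12997 genes. The test was checked on simulated counts. DESeq2 1.42.0 and limma 3.58.1 (voom) were alternatives, with other scalings, no filter, a replicate block, sex and atrial covariates and the removal of each library. A sex term used Y-linked transcripts above 1 CPM. Log2 CPM used a prior count of 2. Exon lengths and positions are from GENCODE on GRCm38, the mm10 assembly, and promoters from RefSeq. Libraries of a group differed by at least 10.7 times (first table) and 15.3 times (second table) the sampling noise in a chi-square comparison. No label ties hearts to litters, and p-values measure only the spread among these hearts. Deviations of same-numbered libraries correlated weakly or not at all, which does not settle whether the hearts were paired.

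Values in every library are given for each called member and for Tomm20, Tomm40, Tomm70a, Timm23 and Timm17a, and partners are named by smallest p, up to 6 called, plus Hspa9 and Chchd4. Members and lists were chosen with earlier results of these data known.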

Additional observations from a re-analysis of the deposited data

Results flagged for a closer look

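Of 44 groups of member values examined in the first table (22 genes, 5 hearts a group), 5 had a heart far from the other 4 by Dixon's gap test, and chance alone gives about 1 in 20 groups. CPT2H-KO replicate 1 was the low heart for Timm21, at 5.39 CPM beside 9.66 to 10.9 CPM in the others. It was also low for Timm10b, at 2.35 CPM beside 2.97 to 3.18 CPM, and for Timmdc1, at 13.4 CPM beside 16.3 to 17.3 CPM. CPT2H-KO replicate 5 was high for Timm23, at 47.5 CPM beside 41.7 to 43.3 CPM. Wild type replicate 2 was high for Tomm70a, at 50.9 CPM beside 45.2 to 46.4 CPM. Groups of 3 hearts were not examined in this way.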

How the results depend on the processing

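In the first comparison, 4758 genes were called, and 2736 with an atrial covariate, the lowest count among 20 alternative settings. Called Timm genes numbered 6, against 3 with the replicate block, 2 with the atrial covariate and 3 among hearts with Myl7 above 10 CPM. Called partners numbered 13, against 7, 5 and 5 under the same settings. The share over all genes is not given here for the replicate block or the Myl7 setting. Whether import genes lost more calls than other genes was not tested. The outer-minus-inner difference of 0.06 was 0.11 in the hearts with Myl7 above 10 CPM, which are CPT2H-KO replicates 1 and 5 and every wild type heart. Removing 1 library at a time gave 3682 to 4787 genes, 1 to 4 Tomm genes (1 without wild type replicate 1 or 3), 3 to 6 Timm genes (3 without wild type replicate 1, 2 or 3), 7 to 14 partners (7 without wild type replicate 2 and 8 without CPT2H-KO replicate 2) and an outer-minus-inner difference of 0.04 to 0.07. The labels do not say whether the replicate numbers pair the hearts. Same-numbered deviations correlated at −0.09 to 0.23 in the first table, where 2 of 5 hearts matched their own number best. In the second they correlated at −0.21 to 0.17, and 1 of 3 hearts matched its own number best. So few hearts cannot show whether they were paired.

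In the second comparison the 0 called genes became 113 with DESeq2, 1 with the replicate block, 22 with the atrial covariate, 36 among hearts with Myl7 at or below 10 CPM and 0 to 114 with 1 library removed; 0 members were called under any setting. The setting with low Myl7 holds 1 double KO heart against 3 single KO hearts, so that heart is assumed to vary like the single KO hearts.

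Directions turned for small differences. Tomm20 in the first comparison was 0.0068 with DESeq2 size factors, 0.0069 with DESeq2, 0.0014 with the sex term, 0.16 with the atrial covariate, 0.24 among hearts with Myl7 above 10 CPM and −0.092 to 0.068 with 1 library removed. Timm44 was 0.011 with the atrial covariate. Library totals gave −0.058 for Timm50, −0.050 for Tomm70a, −0.053 for Hspa9 and −0.021 for Chchd4. In the second comparison Tomm40l was −0.0064 with DESeq2 size factors, −0.0083 without a filter and −0.0066 with DESeq2. Tomm40 was 0.045 with the atrial covariate, and Chchd4 was −0.048 with that covariate, −0.028 with the sex term and −0.048 among hearts of low Myl7. With 1 library removed, Tomm7 ran from −0.031 to 0.29, Tomm40l from −0.052 to 0.068, Tomm40 from −0.092 to 0.0088, Chchd4 from −0.0018 to 0.059 and Hspa9 from −0.22 to 0.034. The cause of these turns was not tested. The second table had fewer hearts and lower totals than the first, with 0.13 as its lowest standard error for a member; which of these sets its precision was not tested.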

Other observations

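Timm8a2 and Tomm20l had too few counts for a test. Timm8a2 had 2, 2 and 1 counts in double KO hearts and 0 in each single KO heart, and Tomm20l had 1 count in single KO replicate 3 and 0 elsewhere.

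In double KO replicate 1, the heart that stood apart for Tomm70a and Tomm7, the deviation of a gene from its group median fell with exon length across genes (Spearman −0.30 over 12849 genes, which share this library). Double KO replicate 3 gave 0.25, and single KO replicates 1 and 3 gave −0.19 and 0.20. The libraries of the first table lay between −0.12 and 0.16. The part of this in the values of Tomm70a and Tomm7 was not tested.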
